A study of Sus scrofa with 6 samples.

Results

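Records for integrins, for proteases that cut the extracellular matrix, for the inhibitors of those proteases and for enzymes that prepare collagen were followed in pig longissimus muscle, the long muscle of the back. They were the 42 records, of 7661 in the deposited table, whose gene symbol begins with ITGA or ITGB and the name of a chain, or with MMP, TIMP, ADAM, ADAMTS, SERPIN, HTRA, PCOLCE, P4HA or PLOD. The 42 symbols are all different, and 39 of them stood under the same symbol in an Ensembl name table. The rule is by name, so it also took ITGB1BP1 and ITGB1BP2, which encode proteins that bind the tail of an integrin chain, and ADAMTSL4, a relative of the ADAMTS proteases without protease activity. Matching was by spelling, so ADAM-9, TIMP-2 and CD61, 3 relatives spelled otherwise in the table, were not taken.

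The muscles came from 3 pigs with high and 3 pigs with low intramuscular fat, the fat that marbles a muscle. The labels name the tissue and the fat group of each sample and give no breed, sex, age or treatment. Total RNA of fresh muscle was made into Illumina TruSeq libraries, 1 per sample. Library totals were 25371989 to 28874691 reads in the high and 30139025 to 34813172 reads in the low group. Markers of muscle fibres were abundant in every library, with 7 of 13 listed markers found and a summed level of 98921 to 108375 CPM (read counts per 1e+06 reads of the library), so the labelled tissue and the markers did not conflict.

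Integrins are receptors made of an alpha and a beta chain that span the cell membrane and tie the matrix outside the cell to the actin skeleton inside it. The matrix around muscle fibres is laid down largely by fibroblasts. Collagen chains are hydroxylated and folded inside the cell and trimmed outside it, and metalloproteinases and serine proteases later cut the matrix. TIMPs block metalloproteinases, and most serpins block serine proteases. Intramuscular fat cells form within this connective tissue.

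No member passed the threshold for a difference between the fat groups. In edgeR's quasi-likelihood test, with p-values adjusted by Benjamini-Hochberg over all 7661 records, 0 of 42 had an adjusted p under 0.05, where 0.144% of the table did. The lowest adjusted p belonged to TIMP3, a metalloproteinase inhibitor bound to the matrix, with 0.0921, and at a threshold of 0.1 it was the 1 member to pass, beside 1.01% of the table. At an unadjusted p under 0.05, 6 members were higher in the high group, which is 14.3% beside 10.2% of the table, and 0 were lower, beside 8.3% of the table. The 6 were TIMP3, ADAM19, ADAMTS2, ITGB6, ITGA8 and ADAMTS20. With each library left out, 5 to 11 members were higher at that level (11.9% to 26.2%), beside 7.13% to 13.3% of the table. At most 1 member (2.38%) was lower in any of these fits, beside 4.58% to 9.11% of the table. The most, 11 members (26.2%), came without low library 3, all higher in the high group. In that fit 9.71% of the table was called as higher. DESeq2 called 5 of the 42 at an adjusted p under 0.05, all higher, beside 4.92% of the table called as higher. The exact test of edgeR called 3, all higher, beside 3.25% of the table, and limma-voom called 0, beside 0.104%.

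The median log2 fold change of the 42, high minus low, was 0.12, beside -0.04 over all records. Of the 42, 26 had a value above 0 (61.9%, beside 45.2% of the table) and 16 a value below it. The range ran from -1.18 for ADAMTS4 to 1.14 for TIMP3. In the CPM that the authors deposited, all 3 high libraries lay above all 3 low libraries in 7 members (16.7%, beside 10.4% of the table), namely ITGA1, ITGA8, ITGB6, ADAM19, ADAMTS2, ADAMTS10 and TIMP3. The reverse was seen in 0 members, beside 13.7% of the table. For 1 record alone, the exact two-sided permutation test over 3 and 3 libraries reaches no p below 0.1.

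**Figure D1:**
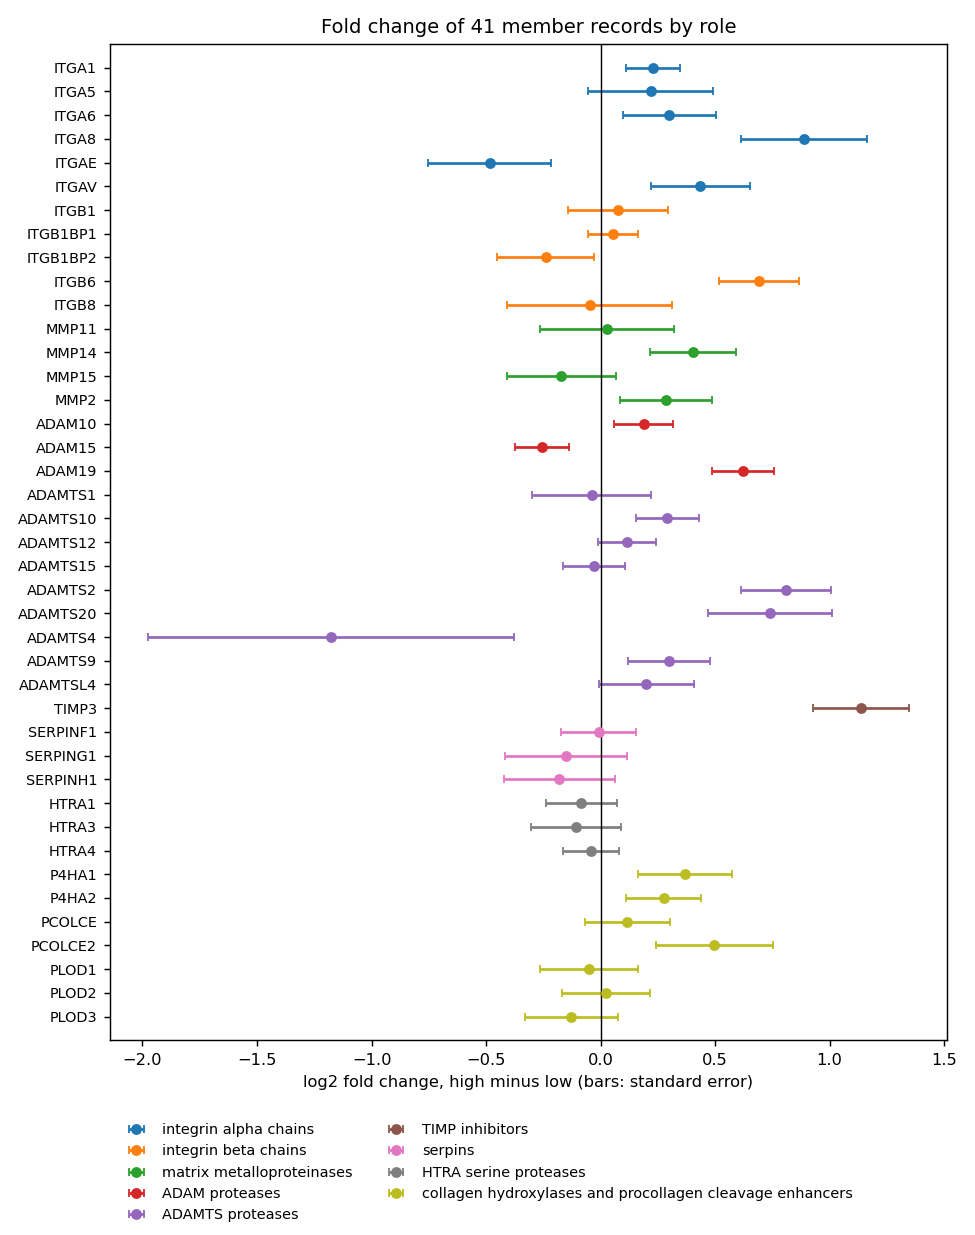
Log2 fold change of 41 of the 42 records, high minus low intramuscular fat, on the horizontal axis, with its standard error, coloured by role. The values lie between -1.18 and 1.14, and the bar of ADAMTS4 is the longest of those shown.

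Beside these counts, genes listed as fibroblast markers were higher in the high group in 12 of 12 records, with 0 past the threshold. Of the 11 listed symbols 10 were found, and THY1 was not matched. The 12 include TCF4 (0.70), matched by its symbol, which is not an established marker of fibroblasts. The summed level of the 12 was 3300 to 4471 CPM in the high and 1525 to 2762 CPM in the low libraries. The largest part of that sum was COL3A1, with 1474.4 to 2114.5 CPM against 672.65 to 1109.8 CPM. The groups overlapped in DCN (log2 difference 0.27), DPT (0.30) and 1 of the 2 COL1A1 records (0.47). Markers of adipocytes were higher in 6 of 6 records (5 of 10 listed symbols were found). The adipocyte sum was 122 to 265 CPM against 49.7 to 64.5 CPM. The 2 records past the threshold were PLIN1 and 1 of the 2 THRSP records, both with an adjusted p of 0.0409 in the quasi-likelihood test. These 2, CIDEA and CIDE-C were above 10 CPM in all high libraries and in no low library. The table holds records above 10 CPM in at least 3 libraries, so these adipocyte records could enter it through the high group alone. Their direction and calls are no support for a difference, and the adipocyte sum follows in part from them. The summed satellite cell markers also separated the groups (561 to 644 against 326 to 474 CPM, with 3 of 5 listed symbols found and 0 past the threshold). Most of that sum was MYF5, with a log2 difference of 0.87 (adjusted p = 0.108), while MYOG had -1.26 (adjusted p = 0.112). The endothelial sums overlapped (289 to 360 against 217 to 375 CPM), as did those of smooth muscle and pericytes (567 to 666 against 407 to 570 CPM) and of macrophages (118 to 187 against 75.1 to 211 CPM). The part of these markers in the values of the members was not tested. In bulk muscle, fewer cells of a type and less RNA per cell cannot be told apart.

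The table holds records with a CPM above 10 in at least 3 libraries. Of the 42 members, 33 exceeded that level in all 6 libraries. ITGA8 exceeded it in the 3 high libraries and in 0 low libraries, so it could enter the table through the high group alone, and its tests and its place in the counts of members called, or separating the groups, follow in part from that. Without it and the other records above 10 CPM in all libraries of 1 group and in none of the other, a choice made after seeing the data, the 6, 5 and 3 members called higher at an unadjusted p under 0.05, in DESeq2 and in the exact test became 5, 4 and 2 of 41. Of the 7541 records left, 9.48%, 4.22% and 2.73% were called so. Counts per member and library ran from 177 to 10930 reads. Levels of different genes are not compared here, since transcript lengths were not used.

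Among the inhibitors of metalloproteinases, TIMP3 was the 1 member. TIMP3 (chromosome 5, 11965791 to 11975326 in the coordinates of the deposited table) stood at 50.1, 66.3 and 51.0 CPM in high libraries 1 to 3 and at 31.2, 19.6 and 25.5 CPM in low libraries 1 to 3. The lowest high library was above the highest low library. The group means were 55.8 ± 9.15 and 25.4 ± 5.81 CPM (SD, n = 3 per group), a 2.20-fold difference. On the log2 scale the difference was 1.14 (SE 0.21, quasi-likelihood adjusted p = 0.0921). With each library left out it lay between 0.95 and 1.32, with adjusted p between 0.0589 and 0.289. TIMP3 was past 0.05 in DESeq2 (adjusted p = 0.0002) and in the exact test (adjusted p = 0.000335). In the authors' deposited table its false discovery rate was 0.000335, the same value as in the exact test on the same counts. That is no separate support. TIMP3 was the 1 member among the 134 genes of the authors' deposited list, whose higher genes make up 1.38% of the table.

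**Figure D2:**
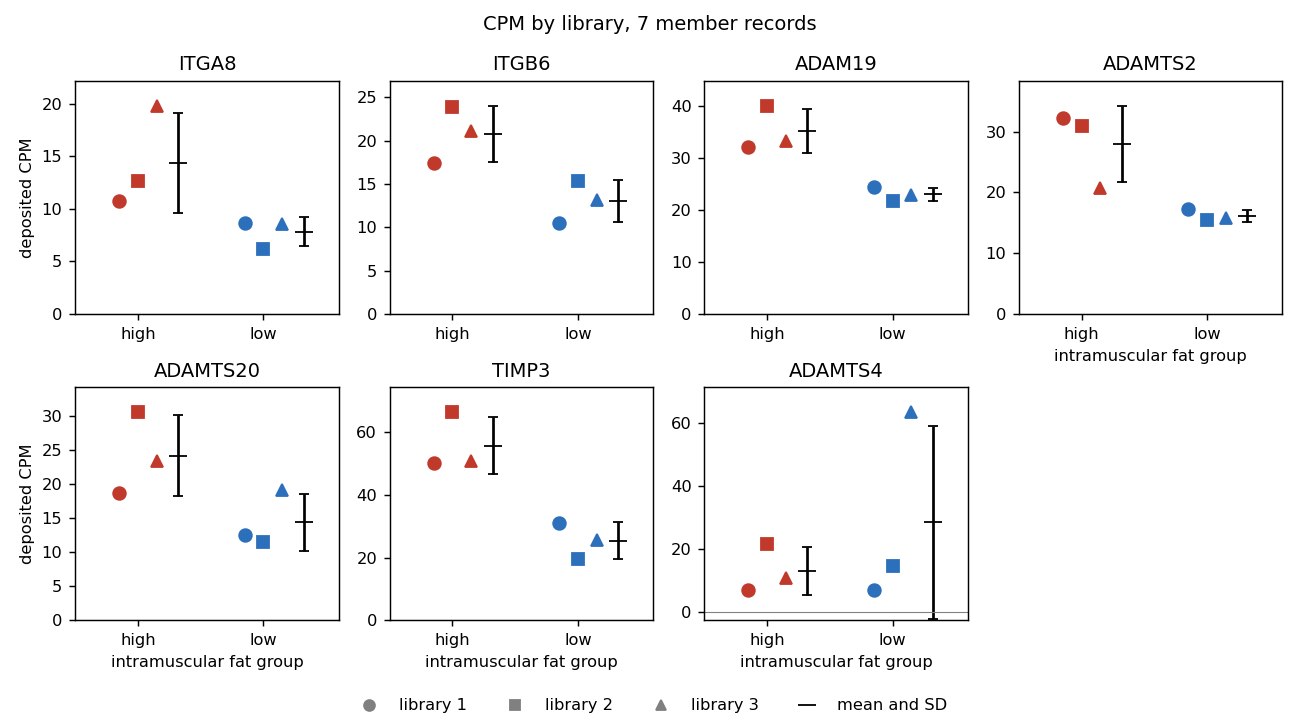
Deposited CPM in each library for the 6 members with an unadjusted p under 0.05 and for ADAMTS4, which was picked after its values were seen, with the mean and SD of 3 libraries per group. TIMP3, ADAM19, ADAMTS2, ITGB6 and ITGA8 separate the groups, while ADAMTS4 is set apart by low library 3 at 63.6 CPM.

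The members with a metalloproteinase domain were of 3 kinds: the MMPs, secreted or membrane-bound, the ADAMs, which are anchored in the membrane and shed the outer parts of other proteins, and the secreted ADAMTS enzymes. Of the 4 MMPs, 3 were above 0 and 1 below, with a median log2 fold change of 0.16, and none had an unadjusted p under 0.05. MMP2, the gelatinase that cuts denatured collagen and basement membrane collagen, stood at 90.6, 97.4 and 88.6 CPM in the high and at 77.8, 58.7 and 90.6 CPM in the low libraries. The high libraries lay close together and the low libraries wider apart, and the groups overlapped (0.29, SE 0.20, adjusted p = 0.466). The MMP2 difference was 0.10 without low library 2 and 0.50 without low library 3. MMP14, the membrane-bound protease that activates the MMP2 proenzyme, was at 21.0, 27.8 and 19.8 CPM against 21.2, 16.3 and 14.9 CPM (0.40, SE 0.19, adjusted p = 0.297). Its high libraries 1 and 3 lay below low library 1. MMP11 had 0.03 (SE 0.29) and MMP15, another membrane-bound form, -0.17 (SE 0.24).

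ADAM19, a membrane-anchored protease that is known to shed neuregulin, was at 32.1, 39.9 and 33.2 CPM in the high and at 24.3, 21.7 and 22.9 CPM in the low libraries (chromosome 16, 71570441 to 71669557). The groups did not overlap, and the low libraries lay close together. The fold was 1.54 and the log2 difference 0.62 (SE 0.14, adjusted p = 0.112), between 0.54 and 0.68 with each library left out. DESeq2 gave an adjusted p of 0.00389 and the exact test one of 0.0795. ADAM10, the sheddase of Notch receptors, stood at 38.8, 51.0 and 49.0 CPM against 40.8, 41.5 and 40.6 CPM (0.19, SE 0.13, adjusted p = 0.452). High library 1 was the lowest of the 6, so the groups overlapped. ADAM15 was at 32.2, 41.8 and 36.2 CPM against 44.2, 47.6 and 41.2 CPM (-0.25, SE 0.12, unadjusted p = 0.0656). Its groups overlapped in deposited CPM by high library 2 and low library 3 and separated, with the high group lower, once TMM factors were applied; it was the 1 member for which this changed.

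Of the 9 ADAMTS records, 6 were above 0 and 3 below, with a median of 0.20. ADAMTS2, which removes the amino-terminal propeptide of fibrillar procollagens, was at 32.2, 30.9 and 20.8 CPM in the high and at 17.2, 15.5 and 15.8 CPM in the low libraries (chromosome 2, 80749844 to 81010536). The groups did not overlap, with high library 3 the nearest to the low group. It was 1.75-fold higher in the high group, a log2 difference of 0.81 (SE 0.20, adjusted p = 0.124), between 0.67 and 0.98 with each library left out. DESeq2 (adjusted p = 0.00802) and the exact test (adjusted p = 0.0337) placed it past 0.05. The authors' deposited table gave a false discovery rate of 0.0337, the same value as the exact test and no separate support. ADAMTS20 stood at 18.7, 30.5 and 23.3 CPM against 12.6, 11.5 and 19.2 CPM (0.74, SE 0.27, adjusted p = 0.222). Low library 3 lay above high library 1, and without it the difference was 1.07.

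ADAMTS4, which cuts aggrecan and versican, spread the most within a group. It stood at 6.98, 21.6 and 10.7 CPM in the high libraries and at 7.07, 14.8 and 63.6 CPM in the low libraries. Low library 3 was the highest of the 6, while low library 1 was next to the lowest. The log2 difference of -1.18 (SE 0.80, adjusted p = 0.449) turned to 0.34 without low library 3. ADAMTS1, a protease of the same proteoglycans, was at 50.1, 87.7 and 45.5 CPM against 59.9, 54.9 and 72.9 CPM (-0.04, SE 0.26), again with high library 2 and low library 3 the highest of their groups. ADAMTS9 had the most reads of the ADAMTS records, at 75.1, 83.8 and 87.4 CPM against 61.5, 91.3 and 52.0 CPM (0.30, SE 0.18, adjusted p = 0.392), and low library 2 was the highest of all. ADAMTS10, which is known to bind fibrillin, had 13.1, 12.9 and 14.2 CPM against 11.3, 12.5 and 9.66 CPM, without overlap (0.29, SE 0.14, adjusted p = 0.304). ADAMTS12 (0.11), ADAMTS15 (-0.03) and ADAMTSL4 (0.20) differed by at most their standard errors, which were 0.13, 0.13 and 0.21.

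Serpins are shaped to trap serine proteases, though some have other tasks. SERPING1, the inhibitor of the first complement component, stood at 124, 169 and 139 CPM against 111, 152 and 216 CPM (-0.15, SE 0.27, adjusted p = 0.778), with 0.21 without low library 3. SERPINH1, the collagen chaperone of the endoplasmic reticulum, which does not inhibit proteases, was at 47.0, 52.7 and 45.6 CPM against 37.9, 55.1 and 72.1 CPM (-0.18, SE 0.24), with 0.14 without low library 3. SERPINF1, pigment epithelium derived factor, had -0.01 (SE 0.16). In SERPING1, SERPINH1 and SERPINF1 all high libraries lay inside the range of the low libraries.

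The 3 HTRA serine proteases were all near 0, with a median of -0.08. HTRA1, a secreted protease that cuts matrix proteins, was at 59.9, 55.8 and 66.6 CPM in the high and at 55.7, 68.5 and 71.0 CPM in the low libraries (-0.08, SE 0.16, adjusted p = 0.790). HTRA3 had -0.11 (SE 0.20) and HTRA4 -0.04 (SE 0.12). The fat groups overlapped in all 3.

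Integrin alpha chains had 6 records, 5 above 0 and 1 below, with a median of 0.26. ITGA1, the alpha chain of a collagen receptor, was at 83.0, 97.5 and 86.3 CPM in the high and at 73.3, 79.1 and 77.4 CPM in the low libraries. The groups did not overlap, but the difference was small, 0.23 on the log2 scale (SE 0.12, adjusted p = 0.336), and it was -0.02 once the trend of each library with the genomic span of the records was removed. ITGA8, whose product pairs with the beta-1 chain and binds nephronectin and fibronectin, was at 10.7, 12.6 and 19.8 CPM against 8.70, 6.22 and 8.53 CPM (chromosome 10, 50828508 to 51000248). The groups did not overlap, with high library 3 the highest. The log2 difference was 0.89 (SE 0.28, adjusted p = 0.177), and it was 0.58 without high library 3. DESeq2 (adjusted p = 0.0369) and the exact test (adjusted p = 0.0484) placed ITGA8 past 0.05, which is no support for a difference, since the record entered the table through its high libraries.

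ITGAV, the alpha chain of receptors for RGD-bearing matrix proteins that also pairs with ITGB6 and ITGB8, stood at 28.8, 40.2 and 27.7 CPM against 31.2, 21.0 and 19.8 CPM (0.44, SE 0.21, adjusted p = 0.318). Low library 1 lay within the high group. ITGA5, the alpha chain of the fibronectin receptor, had 0.22 (SE 0.27) and ITGA6, a laminin receptor chain, 0.30 (SE 0.20). ITGAE, a chain known from T cells within epithelia, was the 1 alpha chain below 0, at 14.7, 14.1 and 8.76 CPM against 23.8, 15.3 and 14.1 CPM (-0.48, SE 0.27, adjusted p = 0.364). Its difference was -0.20 without low library 1. Of the lymphocyte markers, PTPRC was the 1 record found, at 6.78 to 13.8 CPM in the high and 6.41 to 24.3 CPM in the low libraries.

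ITGB1, the beta chain shared by most muscle integrins, had the most reads of all members, at 301, 352 and 269 CPM in the high and 269, 243 and 363 CPM in the low libraries. The groups overlapped, and the difference was 0.08 (SE 0.22, adjusted p = 0.867), from -0.08 to 0.33 with each library left out. ITGB6, the beta chain of an integrin known to activate latent TGF-beta, was at 17.4, 23.8 and 21.1 CPM against 10.5, 15.4 and 13.1 CPM (chromosome 15, 74181045 to 74245447). All high libraries lay above all low libraries. It was 1.61-fold higher in the high group (0.69, SE 0.18, adjusted p = 0.134), between 0.57 and 0.79 with each library left out, and past 0.05 in DESeq2 (adjusted p = 0.0129). ITGB8, with the same known activity, had -0.05 (SE 0.36), its values running from 8.90 to 19.5 CPM in the high and from 8.23 to 19.1 CPM in the low group. ITGB1BP2, the muscle protein melusin that binds the beta-1 tail, had -0.24 (SE 0.21), or 0.00 without low library 3, and ITGB1BP1 0.06 (SE 0.11).

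Collagen hydroxylases and the enhancers of procollagen cleavage had 7 records, 5 above 0 and 2 below, with a median of 0.12 and adjusted p between 0.336 and 0.952. P4HA1, the catalytic subunit of the prolyl hydroxylase that stabilises the collagen triple helix, stood at 115, 115 and 82.9 CPM in the high and at 69.1, 78.9 and 95.7 CPM in the low libraries (0.37, SE 0.20, adjusted p = 0.360). Low library 3 lay above high library 3, and without it the difference was 0.57. P4HA2, the second such subunit, had 0.28 (SE 0.16). PCOLCE and PCOLCE2, which enhance the removal of the carboxy-terminal propeptide, had 0.12 (SE 0.19) and 0.50 (SE 0.26). The lysyl hydroxylases PLOD1, PLOD2 and PLOD3 had -0.05, 0.02 and -0.13, with SEs of 0.21, 0.19 and 0.20.

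Libraries ranked unevenly over the members. High library 2 was the highest of the 6 in 18 of 42 members and the lowest in 0, and low library 1 was the lowest in 13. Summed over the 42 records, the level was 1956, 2457 and 1913 CPM in the high and 1689, 1838 and 2158 CPM in the low libraries, so the groups overlapped through low library 3. The fibroblast marker sum was also highest in high library 2 of the high libraries (4471 CPM) and in low library 3 of the low libraries (2762 CPM). Both sums were lowest in high library 3 of the high libraries. Of the low libraries, the fibroblast sum was lowest in low library 2 (1525 CPM) and the member sum in low library 1. The part of the fibroblast markers in the ranks of the members was not tested.

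**Figure D3:**
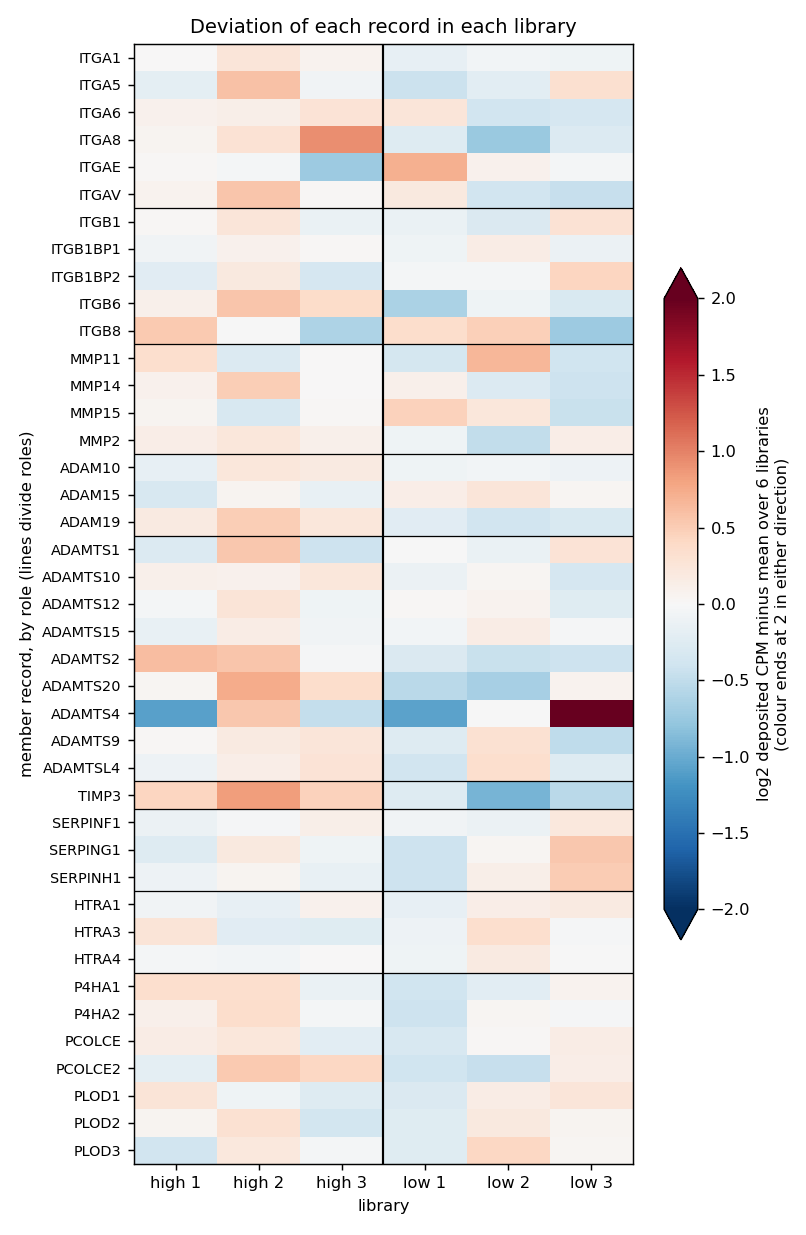
Log2 deposited CPM of 41 of the 42 records minus its mean over the 6 libraries, one column per library and one row per record, in blocks by role. ADAMTS4 in low library 3 is the darkest cell, and TIMP3 is above its mean in the 3 high libraries and below it in the 3 low libraries.

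The spread within groups differed between members. The coefficient of variation over the low libraries was 1.22% for ADAM10 and 108% for ADAMTS4, with a median of 19.0% beside 16.4% over the table. The fold changes with each library left out showed which members rest on 1 animal: ADAM19 stayed between 0.54 and 0.68, while ADAMTS4 ranged from -1.70 to 0.34.

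**Figure D4:**
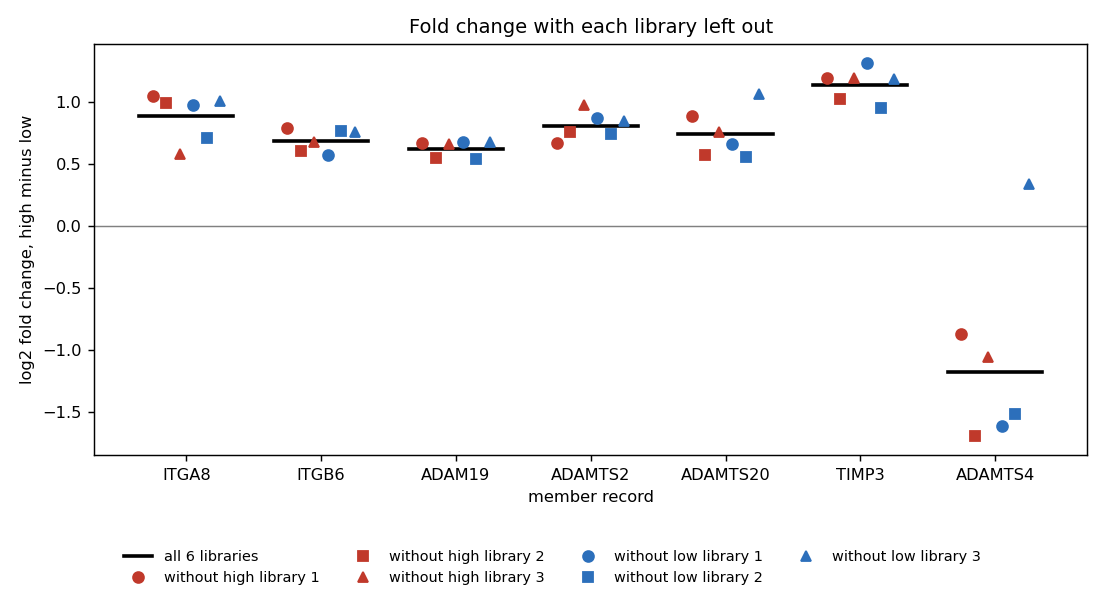
Log2 fold change, high minus low, on the vertical axis for 7 members with all 6 libraries (black bar) and with each library left out (symbols). ADAMTS4 changes sign without low library 3, where it has 0.34, and the other 6 keep theirs.

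The median genomic span of the members was somewhat longer than that of the table, 26.7 kb beside 21.7 kb, with members from 2.19 to 312 kb. Across the 42 members, Spearman's rho between span and log2 fold change was 0.418, beside 0.407 over all 7661 records, as a description of genes that share libraries. With the span trend of each library removed, TIMP3, one of the short members at 9.54 kb, had 1.26. The longer ITGA8, ITGB6, ADAM19, ADAMTS2 and ADAMTS20 then had 0.65, 0.54, 0.43, 0.54 and 0.49. The lowest adjusted p of these 6 in that fit was 0.0888, for TIMP3.

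Further genes of matrix turnover and integrin adhesion gave 40 records beside the members, of which 0 passed the threshold. In the list of collagen crosslinking, folding and procollagen cleavage 2 of 7 records were above 0 (median -0.11). Of the 7, 1 was higher and 2 lower at an unadjusted quasi-likelihood p under 0.05, beside 10.2% and 8.3% of the table. BMP1, the protease whose cleavage PCOLCE enhances, was lower in the high group, at 20.6, 20.2 and 14.0 CPM against 24.2, 38.3 and 30.1 CPM (-0.73, SE 0.21, adjusted p = 0.160). The groups did not overlap. LEPREL1, a prolyl 3-hydroxylase, had 0.39 (SE 0.13, adjusted p = 0.197) and PPIB, a prolyl isomerase that folds collagen, -0.42 (SE 0.16, adjusted p = 0.230).

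In the list of other pericellular proteases and their regulators 6 of 16 records were above 0 (median -0.11). Of the 16, 2 were higher and 3 lower at an unadjusted quasi-likelihood p under 0.05, beside 10.2% and 8.3% of the table. FAP, a serine protease of activated fibroblasts, was at 33.7, 25.4 and 36.1 CPM in the high and at 18.9, 17.7 and 20.0 CPM in the low libraries (0.77, SE 0.19, adjusted p = 0.127). PLAU, urokinase, which turns plasminogen into plasmin, was at 18.5, 24.6 and 19.5 CPM against 24.7, 43.9 and 68.6 CPM (-1.14, SE 0.36, adjusted p = 0.182). All 3 high libraries lay below the low ones, with 24.6 and 24.7 CPM the nearest values, and low library 3 was the highest. BSG, basigin, an inducer of metalloproteinases, had -0.44 (SE 0.14, adjusted p = 0.185). In the list of integrin adhesion and linkage to actin 8 of 17 records were above 0 (median -0.02). Of the 17, 3 were higher and 1 lower at that level, beside the same shares of the table. BCAR1, an adaptor of focal adhesions, had -0.57 (SE 0.19, adjusted p = 0.189), CD47, a partner of ITGB3 integrins, 0.39 (SE 0.14, adjusted p = 0.204), and FERMT2, kindlin-2, which binds integrin beta tails, 0.59 and 0.38 on its 2 records (adjusted p = 0.232 and 0.251), which can share reads.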

How the data were processed

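RNA of 6 longissimus samples, 3 per fat group, was sequenced on an Illumina HiSeq, per the labels. The submitters' processing notes name FastQC 0.10.1, Trimmomatic 0.22, TopHat2 2.0.4 and BWA 0.6.2. The read counter, strand setting and genome build are not stated there. The authors deposited raw read counts and CPM, which equalled the count per 1e+06 reads of a library total, together with log2 fold changes (low over high, turned around here), p-values and false discovery rates, per the file headers. Those totals were the library sizes. TMM factors ran from 0.939 to 1.073.

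High was compared with low in edgeR 4.0.16 (R 4.3.3) with TMM, filterByExpr, which kept all 7661 records, and no covariates, by the quasi-likelihood F-test; p-values were adjusted over all records by Benjamini-Hochberg, with a threshold of 0.05. SE is the absolute log2 fold change over the square root of F. Levels in CPM are the deposited ones. DESeq2 1.42.0, limma 3.58.1 (voom) and other settings were alternatives. The tests were checked on simulated data. The design text gives 3 pigs per group; p-values measure the spread between these samples.

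Members and lists were chosen with earlier results of these data known. Library values were given for members with an unadjusted p under 0.05, or with groups that separate and a log2 fold change of 0.5 or more in size, and for the member with the most reads in each role, in all 14 members; the library values of other members were added after they were seen. Up to 3 records of each pathway list with the lowest p were named. Records that overlap, or antisense genes, could share reads. No sequence is printed, and the values of 1 member, which stays in the counts over all 42, are not reported here.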

Additional observations from a re-analysis of the deposited data

How the results depend on the processing

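The count of members past the threshold was 0 in the quasi-likelihood test and 0 with other scaling factors, no filter, limma-voom, the span trend removed, library sizes without mitochondrial records and each library left out. It was 5 in DESeq2, 3 in the exact test and 1 at a threshold of 0.1. The members with an unadjusted p under 0.05 numbered 6 to 11 with each library left out, and 11 without low library 3. Those higher were 5 to 11, or 11.9% to 26.2% of the members, beside 7.13% to 13.3% of the table in the same fits. Without low library 1, 1 was lower (ADAMTS4, 2.38% of the members), beside 9.11% of the table. Without high library 2, 1 was lower (ADAM15, 2.38%), beside 4.58% of the table. In the other fits none were lower, beside 5.4% to 7.32% of the table. Over all records of the series 11 passed, 518 in DESeq2, 316 in the exact test, and 1 to 30 with each library left out, 1 of them without low library 2 and 30 without low library 1. The members' median of 0.12 was 0.05 to 0.22 with each library left out.

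With the replicate number as a block 0 members and 2 records of the table passed, and the members' median was 0.12. The numbers are not said to pair the samples. Deviations of same-numbered libraries correlated at 0.12, 0.029 and -0.084, so not every library correlated best with its own number. Such correlations cannot settle whether animals were paired.

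Among the 14 members named by the rule, directions turned for HTRA1 without low library 3 (0.05; -0.17 to 0.05 with each library left out), SERPING1 without low library 3 (0.21; -0.34 to 0.21), ITGA1 with the span trend removed (-0.02) and ITGB1 with the span trend removed (-0.05), without low library 2 (-0.08) and without high library 2 (-0.00; -0.08 to 0.33). Of all 42 members, 17 turned with at least 1 library left out, 10 of them without low library 3; for 15 of the 17 the difference was within its standard error of 0, and the other 2 were ADAMTS4 (-1.18, or 0.34 without low library 3) and ITGB1BP2 (-0.24, or 0.00). In all, 196 of the 210 alternative values of the 14 members kept their side and direction. The fewest reads behind a value of a member in a library were 177.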

Other observations

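Relatives of the members that the naming rule did not take were looked at after the members' values were seen. CD61, whose identifier carries the symbol ITGB3 in the Ensembl name table, encodes the beta chain of platelet and vascular integrins. It was at 12.3, 19.4 and 10.4 CPM in the high and at 9.91, 5.90 and 6.60 CPM in the low libraries. The groups were without overlap (log2 fold change 0.91, SE 0.29, quasi-likelihood adjusted p = 0.182). The authors' deposited table gave a false discovery rate of 0.0470. Like ITGA8, CD61 was above 10 CPM in all high libraries and in no low library, so it could enter the table through the high group alone. Its separation and its tests are thus no support for a difference. ADAM-9, a membrane-anchored sheddase, was at 31.2, 42.9 and 33.0 CPM against 27.4, 22.2 and 21.3 CPM, also without overlap (0.61, SE 0.16, adjusted p = 0.142). TIMP-2, which inhibits metalloproteinases and takes part in the activation of MMP2, had -0.10 (SE 0.12, adjusted p = 0.645). ITGBL1, an integrin-like secreted protein whose symbol the rule does not cover, had 0.42 (SE 0.43, adjusted p = 0.612).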
